A study of Mus musculus with 14 samples.

Results

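The IL-12, IL-15, IL-18, and IL-27 axis was described through 10 genes that were taken by name, with earlier results of these data known, from the 53801 Ensembl genes with a value in each tumor. They were the cytokine genes Il12b, Il15, Il18, and Il27, the receptor genes Il12rb1, Il12rb2, Il15ra, Il18r1, and Il18rap, and the decoy Il18bp. RNA-seq of bulk tissue had been done on 14 tumors of CT26, a mouse colon carcinoma line, which grew in the flanks of 11 young female BALBc mice from cells that carried a library of DNA barcodes. Tumors 14L, 14R, 16R, 17R, and 20R made up the control IgG group (5 tumors of 4 mice), 24L, 26R, 30L, 30R, and 35L the anti-PD-1 responders (5 tumors of 4 mice), and 29L, 32R, 33L, and 33R the anti-PD-1 non-responders (4 tumors of 3 mice). All mice had repeated intraperitoneal doses of antibody from when the tumors were palpable, either control IgG or anti-PD-1, which blocks an inhibitory receptor of T cells, and the tumors were harvested after the last dose. The labels responder and non-responder were set by the size of the treated tumors relative to the control cohort, so tumor size and response cannot be told apart. L and R are the flank, and 3 mice gave both of their tumors.

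IL-12, IL-15, IL-18, and IL-27 are made mainly by macrophages and dendritic cells, and they act on T cells and NK cells, where they can raise interferon gamma and cytotoxic function, among other effects. IL-12 is a dimer of the p40 chain, encoded by Il12b, and the p35 chain, encoded by Il12a, and it signals through the IL-12 receptor chains of Il12rb1 and Il12rb2 to STAT4. IL-15 is held on the surface of the producing cell by the chain of Il15ra and shown to neighbouring cells that carry the shared chains of Il2rb and Il2rg. IL-18 is cut to its active form by caspase-1, binds the chain of Il18r1, which then recruits the chain of Il18rap, and is neutralized by the secreted protein of Il18bp. IL-27 is a dimer of the products of Il27 and Ebi3.

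Of the 5 receptor genes 4, and the decoy, were higher in responders. The receptor gene Il18rap and the cytokine genes Il12b, Il15, Il18, and Il27 did not pass the test in any comparison, with Il12b just outside the threshold. Il12rb1, Il12rb2, Il15ra, Il18r1, and Il18bp were higher in responders than in non-responders and than in control IgG tumors, by 1.72 to 2.92 times in the edgeR fit. Levels are given in CPM, the count relative to the library total after edgeR's TMM scaling. All 10 genes had enough counts to be tested, and edgeR's quasi-likelihood test called 5 of them at an adjusted p under 0.05 between responders and non-responders, all higher in responders. Over the 16287 genes tested, 9.9% were called in that comparison and 5.08% were called as higher. Against control IgG the same 5 genes were called, where 13.2% of all genes were called and 7.88% as higher. The 2 comparisons share the 5 responder tumors, so their values are given side by side and not as separate support. Between non-responders and control IgG, edgeR called 0 of the 10 genes, and 0 of them had an unadjusted p under 0.05. Over all genes 0% were called there by edgeR, with 758 genes at an unadjusted p under 0.05 and 18 genes called by DESeq2, none of them among the 10.

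Markers of several of the cell types that make and use these cytokines were also higher in responders, though not every marker of a type was. The TPM (a level per length, brought to an equal total in all tumors) summed over 8 T cell markers was 36.8 to 78.6 in responders, 15.8 to 38.0 in control IgG tumors, and 14.5 to 23.8 in non-responders, and 7 of the 8 markers were called as higher in responders than in non-responders. The summed TPM of 7 NK cell markers was 124.6 to 252.1 in responders, 53.7 to 80.3 in control IgG tumors, and 74.2 to 114.7 in non-responders, with 1 of 7 called between responders and non-responders and 6 of 7 between responders and control IgG. Gzma made up most of this sum, at a mean of 134.8 TPM in responders, 48.6 in control IgG tumors, and 73.5 in non-responders. It was called against control IgG but not against non-responders (edgeR adjusted p = 0.00387 and 0.158). For 7 markers of type 1 dendritic cells, a source of IL-12, the sum was 99.7 to 137.3 in responders, 66.6 to 88.1 in control IgG tumors, and 55.4 to 90.1 in non-responders. Of these markers 4 were called against non-responders and 6 against control IgG. Cadm1 and Irf8 made up most of the sum (mean of 63.6 and 38.1 TPM in responders). Neither was called against non-responders (edgeR adjusted p = 0.186 and 0.11). For 8 macrophage markers the sum was 1725.7 to 2356.6 in responders, 1404.7 to 1643.5 in control IgG tumors, and 1299.2 to 1542.7 in non-responders, with 1 called in each comparison of responders. The most abundant of them, C1qa, C1qb, and C1qc, were not called (edgeR adjusted p of 0.0972 to 0.493 against non-responders). All sums here are in TPM, where genes as a whole moved up in responders. In log2(TPM + 1) the median of all genes moved by 0.17 against non-responders and 0.09 against control IgG. For 6 markers of mature dendritic cells the sums overlapped, at 104.3 to 128.2 in responders, 109.6 to 119.3 in control IgG tumors, and 75.5 to 133.6 in non-responders. Fscn1 made up most of the sum (mean of 84.1 to 90.7 TPM by group) and was not called, so the sum says little about the scarcer markers. Of these markers 5 were tested, with a median log2 fold change of 0.04 against non-responders and -0.03 against control IgG, and 2 (Ccr7 and Ccl22) and 1 (Ccr7) were called as higher in responders. In bulk tumors, fewer cells of a type and less RNA per cell cannot be told apart, and the part of these cells in the values of the 10 genes was not tested.

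Library totals were between 33237744 and 48481461 expected counts. Tumors 14R and 33R stood apart from their groups, with the highest summed TPM of skeletal muscle markers (1316.8 and 727.8, against 30.0 to 489.1 in the other tumors), and the tests of the 10 genes and of their ratios were also run without both. Of the 8 colon epithelial markers, Cdx1 was at 0 in every tumor and Vil1 had at most 8 counts, and the other 6 were tested. Krt20 was the most abundant of them, at a mean of 275.6 to 380.7 CPM by group. Cdx2 was the 1 called, with a lower level in responders than in control IgG tumors (mean of 0.148 against 0.57 CPM, log2 difference -1.97 ± 0.55, edgeR adjusted p = 0.0303). Epidermal keratinocyte markers summed to between 4.96 and 749.9 TPM, and none of the 8 was called in any comparison.

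In level per length the 10 genes ran from 0.11 TPM (Il12b in 20R) to 88.5 TPM (Il18bp in 24L). In control IgG tumors Il18rap was the highest at 36.6 ± 4.05 TPM (mean ± SD, n = 5), and its range of 30.4 to 40.3 lay above that of every other gene of the axis. Below it came Il18bp (15.8 ± 6.88), Il15ra (12.3 ± 3.07), Il15 (8.72 ± 2.52), Il18 (5.61 ± 1.89), and Il12rb1 (2.91 ± 0.937), each of which overlapped its neighbours in this order. Il18r1 (0.94 ± 0.311 TPM) was separated from Il12rb1 and overlapped Il12rb2 (0.588 ± 0.175), and Il27 (0.542 ± 0.371) and Il12b (0.336 ± 0.278) overlapped both Il12rb2 and each other. In responders the order was changed at the top, where Il18bp was at 50.8 ± 23.8 TPM, Il18rap at 36.7 ± 1.51, and Il15ra at 27.9 ± 7.13, with overlapping ranges. Il12b and Il27 had 4 to 62 counts per tumor, so their values carry the largest counting error of the 10.

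**Figure D1:**
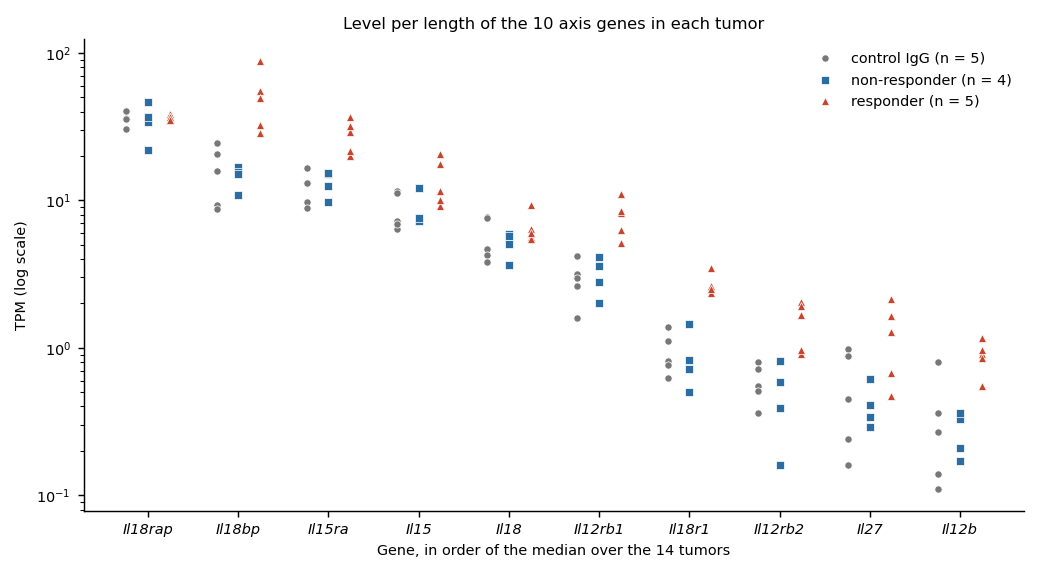
TPM of the 10 axis genes in each of the 14 tumors on a log scale, with genes ordered by their median and points colored by group. Il18rap lies at 22.1 to 46.4 TPM in all groups, while Il18r1, the other chain of the IL-18 receptor, lies at 0.50 to 3.46 TPM, with the 5 responders above all other tumors.

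Promoter sequence was read for 7 of the 10 genes from RefSeq (GRCm38.p6), as windows of 300 bases that start 250 bases before a transcription start site. Il12rb1, Il15, and Il27 had no entry. Because the axis is tied to STAT and NF-kappaB factors, 3 motifs were searched on both strands: GAS (TTCNNNGAA), the site type of STAT dimers, ISRE (GAAANNGAAA), the interferon-stimulated response element, and NF-kappaB (GGGNNNNNCC). Of all 32851 promoter windows of the same length, 8.3% held the GAS letters, 3.44% the ISRE letters, and 50.8% the NF-kappaB letters. The windows of the called genes with a match are given, and that of Il18bp, the called gene with the largest change and no match, with the matched letters in capitals.
Il12rb2 (chr6:67376139-67376438, minus strand): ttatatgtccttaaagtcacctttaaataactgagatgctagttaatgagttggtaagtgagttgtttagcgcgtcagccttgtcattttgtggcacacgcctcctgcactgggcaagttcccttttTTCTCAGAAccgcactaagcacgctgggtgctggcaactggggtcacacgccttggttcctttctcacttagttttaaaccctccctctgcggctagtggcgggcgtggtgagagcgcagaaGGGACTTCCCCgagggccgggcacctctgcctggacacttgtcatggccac
Il18r1, the third start site (chr1:40465756-40466055, plus strand): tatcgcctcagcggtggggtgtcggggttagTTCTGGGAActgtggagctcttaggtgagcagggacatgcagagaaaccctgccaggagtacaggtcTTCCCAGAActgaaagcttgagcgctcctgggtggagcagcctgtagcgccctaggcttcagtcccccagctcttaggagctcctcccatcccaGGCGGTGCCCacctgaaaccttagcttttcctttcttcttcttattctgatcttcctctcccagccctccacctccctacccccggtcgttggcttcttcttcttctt
Il15ra, the second start site (chr2:11705462-11705761, plus strand): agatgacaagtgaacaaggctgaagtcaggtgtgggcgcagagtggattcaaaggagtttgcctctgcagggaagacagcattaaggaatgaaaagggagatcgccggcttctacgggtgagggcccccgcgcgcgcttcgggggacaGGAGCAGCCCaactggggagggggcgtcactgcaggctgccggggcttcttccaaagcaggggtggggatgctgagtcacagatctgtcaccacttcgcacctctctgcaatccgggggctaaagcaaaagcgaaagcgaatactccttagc
Il18bp (chr7:102018183-102018482, minus strand): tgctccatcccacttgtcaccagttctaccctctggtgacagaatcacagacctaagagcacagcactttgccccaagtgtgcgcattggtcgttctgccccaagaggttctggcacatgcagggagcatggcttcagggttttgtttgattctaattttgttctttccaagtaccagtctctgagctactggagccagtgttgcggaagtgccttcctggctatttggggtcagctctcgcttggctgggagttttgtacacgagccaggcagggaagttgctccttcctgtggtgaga
The Il12rb2 window held 1 GAS match that began at position -123, counted from the start site at 0, and 2 NF-kappaB matches that overlapped each other, at -1 and 0. The third of the 3 start sites of Il18r1 had 2 GAS matches, at -219 and -152, and 1 NF-kappaB match at -58, while the windows of its other 2 start sites had none. The second of the 2 start sites of Il15ra had 1 NF-kappaB match at -102. None of the windows of Il12b, Il18, Il18bp, or Il18rap held any of the 3 motifs, and no window of the 7 genes held ISRE. A match in letters is a description of the window and not a bound site.

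Il12b, the p40 chain shared by IL-12 and IL-23 (chr11:44400063-44414033, plus strand, mm10), was scarce. In responders it was at 1.43, 1.17, 1.24, 0.656, and 1.09 CPM in tumors 24L, 26R, 30L, 30R, and 35L, the order used for all responders. Non-responders had 0.448, 0.255, 0.482, and 0.380 CPM in 29L, 32R, 33L, and 33R. Control IgG tumors had 1.02, 0.534, 0.184, 0.362, and 0.160 CPM in 14L, 14R, 16R, 17R, and 20R. All responders lay above all non-responders, and they overlapped the control IgG group through 14L. Its log2 fold change was 1.51 ± 0.46 (SE) between responders and non-responders and 1.31 ± 0.42 between responders and control IgG, with edgeR adjusted p = 0.0533 and 0.0549, just outside the threshold. The first comparison passed the threshold under 7 of 10 alternative settings, with adjusted p from 0.0148 to 0.102, and the second under 6 of 10, with 0.0158 to 0.0750. With 1 tumor left out at a time, the first comparison passed in 3 of 14 fits and the second in 2 of 14. Both passed without 14L (edgeR adjusted p = 0.0262 and 0.00817). The first also passed without 16R (0.0481) or 20R (0.0425), and the second without 33R (0.0489). In the other fits the edgeR adjusted p reached 0.132 in the first (without 32R) and 0.128 in the second (without 24L).

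Il12a, which encodes the p35 partner needed for IL-12, had 0 to 7 counts per tumor and was not tested. Il23a, which encodes the partner of p40 in IL-23, was at 0.0993 to 0.423 CPM in responders and 0.34 to 0.792 in non-responders, a log2 difference of -1.07 ± 0.40 that did not pass the test (edgeR adjusted p = 0.0988).

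Il27, the p28 chain of IL-27 (chr7:126589010-126594941, minus strand), did not pass the test. Responders had 1.25, 0.408, 1, 0.715, and 0.283 CPM, non-responders 0.399, 0.232, 0.255, and 0.253, and control IgG tumors 0.596, 0.619, 0.105, 0.289, and 0.160. In CPM the 5 responders were spread over the widest range, with 35L among the tumors of both other groups. In log2 CPM the SD was 0.95 in control IgG tumors and 0.82 in responders. Its log2 fold change was 1.35 ± 0.54 against non-responders (edgeR adjusted p = 0.117, confidence interval 0.21 to 2.49) and 1.04 ± 0.49 against control IgG (edgeR adjusted p = 0.177). No alternative setting brought either under the threshold, and leaving out 24L gave 1.07 and 0.76. Its 3' end overlaps Apobr on the other strand, which was at 9.31 to 29.3 TPM, and the counting is not stated to use strand. Ebi3, the partner chain, had a log2 difference of 0.49 ± 0.20 between responders and non-responders (edgeR adjusted p = 0.127). Il27ra, the receptor chain that binds IL-27, was called in responders at 0.87 ± 0.18 against non-responders and 0.87 ± 0.17 against control IgG (edgeR adjusted p = 0.0137 and 0.00491).

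Il12rb1, the chain that binds p40 (chr8:70808449-70821424, plus strand), was higher in every responder than in any other tumor. It was at 19.8, 9.79, 15.6, 12.3, and 10 CPM in responders, at 6.15, 6.67, 5.10, and 4.5 CPM in the non-responders, and at 7.70, 6.70, 4.97, 6.51, and 3.63 CPM in control IgG tumors. The log2 fold change was 1.27 ± 0.25 against non-responders and 1.19 ± 0.23 against control IgG (edgeR adjusted p = 0.0109 and 0.00429). Both calls were made under all 10 alternative settings and with each of the 14 tumors left out.

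Il12rb2, the signaling chain that makes cells responsive to IL-12 (chr6:67291318-67376188, minus strand), was at 4.32, 2.01, 3.70, 3.89, and 2.09 CPM in responders. Non-responders had 1.92, 1.48, 0.906, and 0.507 CPM, and control IgG tumors 1.76, 1.41, 1.18, 1.66, and 0.868. The groups did not overlap, but responders 26R and 35L lay close to non-responder 29L. In log2 fold change responders were 1.40 ± 0.36 above non-responders and 1.22 ± 0.33 above control IgG (edgeR adjusted p = 0.0284 and 0.0265). The call against non-responders was lost with the tumors of a mouse summed (edgeR adjusted p = 0.0683), in a fit of the 2 groups alone (0.0645), without both 14R and 33R (0.0575), and without any 1 of 24L, 30L, 30R, 32R, 33L, or 33R (edgeR adjusted p of 0.0516 to 0.0743), and that against control IgG without any 1 of 16R, 20R, 24L, 30L, or 30R (0.0531 to 0.0762). Il12rb2 overlaps Serbp1 on the other strand, which was at 591.1 to 976.4 TPM, and it was the 1 gene of the 10 whose expected count was not whole in any of the 14 tumors, as when fragments are divided between genes.

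**Figure D2:**
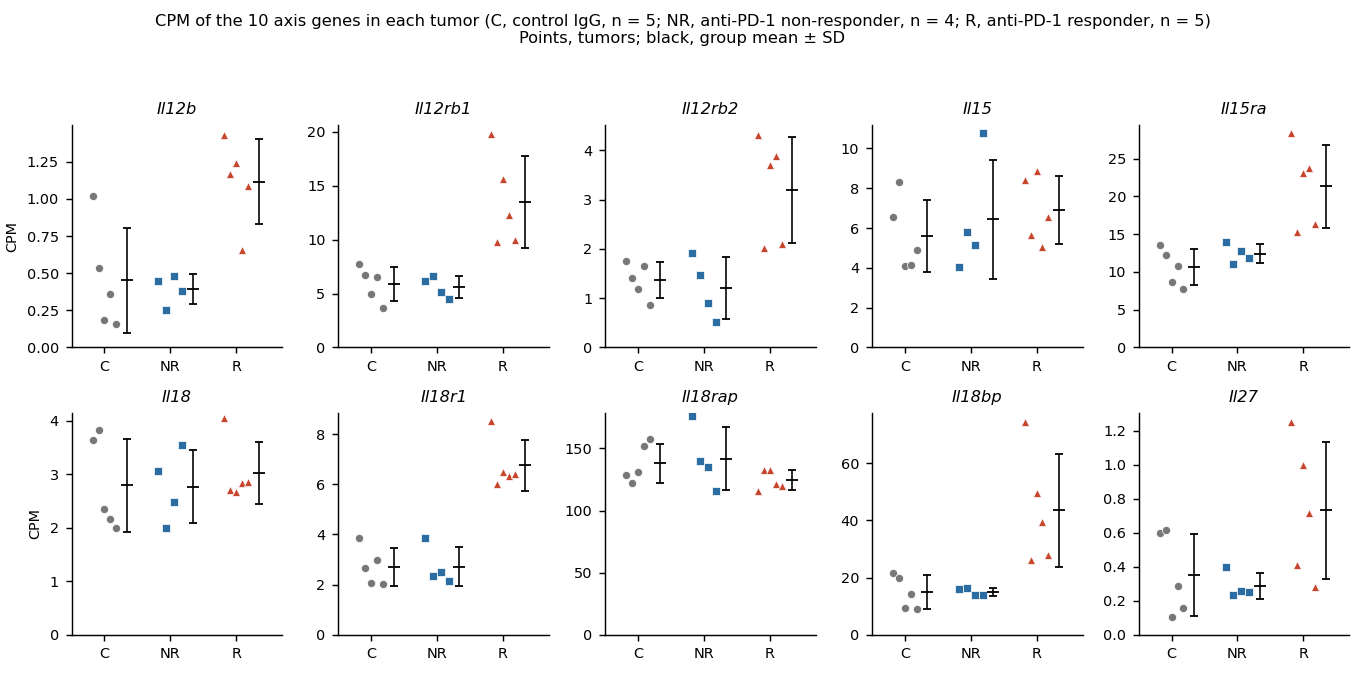
CPM of each of the 10 axis genes in the 14 tumors, with points for tumors and black bars for the group mean ± SD; every axis starts at 0. Il12rb1, Il12rb2, Il15ra, Il18r1, and Il18bp have all 5 responders above all 9 other tumors, while the 3 groups overlap for Il15, Il18, Il18rap, and Il27.

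Il15ra rose in responders, but Il15 did not pass the test. Il15ra, the chain that presents IL-15 to neighbouring cells (chr2:11705290-11734317, plus strand), was at 28.4, 15.3, 23.1, 23.8, and 16.3 CPM in responders, at 14.0, 11.1, 12.8, and 11.8 CPM in the non-responders, and at 13.6, 12.3, 8.70, 10.8, and 7.79 CPM in control IgG tumors. The lowest responder, 26R, was just above the highest of the other tumors, 29L. The log2 fold change was 0.78 ± 0.19 against non-responders and 1.01 ± 0.18 against control IgG (edgeR adjusted p = 0.0251 and 0.00323). The first call was lost with the tumors of a mouse summed (edgeR adjusted p = 0.0521), without both 14R and 33R (0.0501), and without 24L, 30R, 32R, or 33R alone (0.0593 to 0.0696), at log2 fold changes of 0.66 to 0.78. The second was made in every alternative and with every tumor left out.

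Il15 (chr8:82331632-82403222, minus strand) was at 8.44, 5.63, 8.88, 5.03, and 6.56 CPM in responders, at 4.04, 5.81, 5.13, and 10.8 CPM in the non-responders, and at 6.56, 8.31, 4.10, 4.15, and 4.91 CPM in control IgG tumors. The highest non-responder and the highest control IgG tumor were 33R and 14R, the tumors with the most skeletal muscle markers, and the highest responder, 30L, had the lowest muscle sum of all 14 (30.0 TPM). The part of muscle in the Il15 values was not tested. The log2 difference between responders and non-responders was 0.10 ± 0.29, with a 95% confidence interval of -0.52 to 0.72 (edgeR adjusted p = 0.855), and without 14R and 33R it was 0.48 (edgeR adjusted p = 0.196). The sign of this difference turned without 29L (-0.07). Against control IgG it was 0.30 ± 0.27 (edgeR adjusted p = 0.517). The effective length of Il15, which follows the mix of transcripts that RSEM assigned, varied between 527.2 and 865.3 bases among tumors. On the log2(TPM + 1) scale the difference between responders and non-responders was 0.60 (limma adjusted p = 0.109), where the median of all genes had moved by 0.17.

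Of the IL-18 genes, the primary receptor chain and the decoy were higher in responders, the accessory chain and the ligand not. Il18 (chr9:50554827-50581840, plus strand) was at 4.05, 2.71, 2.67, 2.84, and 2.86 CPM in responders, at 3.06, 1.99, 2.49, and 3.55 CPM in the non-responders, and at 3.64, 3.82, 2.36, 2.17, and 1.99 CPM in control IgG tumors. The 3 groups overlapped throughout. The log2 difference was 0.13 ± 0.24 against non-responders, with a 95% confidence interval of -0.38 to 0.63 (edgeR adjusted p = 0.767), and 0.11 ± 0.22 against control IgG (edgeR adjusted p = 0.786), and without 24L the values were -0.00 and -0.01. A difference of the size seen for Il18bp lay outside the first of these intervals.

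Il18bp, which encodes the secreted protein that neutralizes IL-18 (chr7:102014885-102018690, minus strand), had the largest called change of the 10 genes in both comparisons. Responders had 74.5, 26.3, 49.5, 39.3, and 27.9 CPM, non-responders 16.1, 16.4, 13.9, and 13.9, and control IgG tumors 21.7, 20.0, 9.38, 14.4, and 8.98. The responders lay above all other tumors and differed among themselves by more than the entire range of the other groups. The log2 fold change was 1.53 ± 0.32 against non-responders and 1.54 ± 0.30 against control IgG (edgeR adjusted p = 0.0139 and 0.00471), or 2.88 and 2.92 times in the edgeR fit. Without 24L, the highest responder, it was 1.24 and 1.26 (edgeR adjusted p = 0.0361 and 0.0126), and every alternative and every tumor left out kept both calls. The 3' end of Il18bp overlaps Numa1, on the other strand and at 18.0 to 68.6 TPM.

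Il18r1, the chain that first binds IL-18 (chr1:40465552-40500854, plus strand), had the smallest p of the 10 genes. It was at 8.53, 6, 6.47, 6.34, and 6.41 CPM in responders, at 3.86, 2.34, 2.49, and 2.15 CPM in the non-responders, and at 3.86, 2.65, 2.05, 2.99, and 2.01 CPM in control IgG tumors. Apart from 24L the responders lay between 6 and 6.47 CPM, and all were well above the other tumors. The log2 fold change was 1.31 ± 0.22 against non-responders and 1.32 ± 0.21 against control IgG (edgeR adjusted p = 0.00679 and 0.00167), and both calls were made in every alternative and with every tumor left out.

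Il18rap, the chain that completes the signaling receptor (chr1:40515362-40551705, plus strand), lies downstream of Il18r1 on the same strand of chromosome 1. It was at 115.7, 132.9, 132.5, 121.7, and 119.4 CPM in responders, at 175.9, 140.1, 135.4, and 115.4 CPM in the non-responders, and at 128.4, 122.0, 130.7, 152.0, and 157.3 CPM in control IgG tumors. Responders spanned the narrowest range and overlapped both other groups. The log2 difference was -0.19 ± 0.11 against non-responders and -0.15 ± 0.11 against control IgG (edgeR adjusted p = 0.295 and 0.391), and on the log2(TPM + 1) scale the values were 0.11 and 0.01, below the median of all genes on that scale, which had moved to 0.17 and 0.09.

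**Figure D3:**
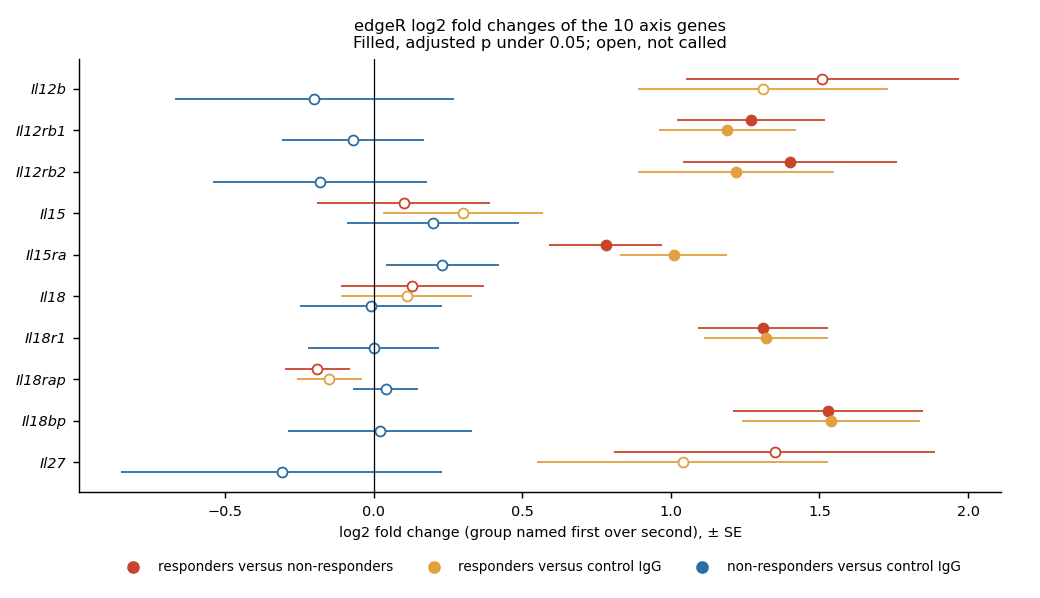
Log2 fold change ± SE of the 10 axis genes from the edgeR fit in 3 comparisons, with filled points for an adjusted p under 0.05. The 5 called genes lie between 0.78 and 1.54 in both comparisons of responders, and the values between non-responders and control IgG lie between -0.31 and 0.23 with none called.

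Over the 10 genes the median log2 fold change was 1.29 between responders and non-responders and 1.12 between responders and control IgG, where the median of all genes tested was 0.01 and -0.01. All responders lay above all non-responders for 6 of the 10 genes, the 5 called and Il12b, and 12.8% of all genes had groups that did not overlap. Against control IgG the groups did not overlap for 5 genes, beside 15.1% of all genes. Non-responders and control IgG tumors overlapped for all 10 genes, where 1.25% of all genes did not overlap, and the differences ran from -0.31 ± 0.54 for Il27 to 0.23 ± 0.19 for Il15ra, with edgeR adjusted p from 0.931 to 0.999. These intervals were wide for the scarce genes, such as -1.20 to 0.80 for Il12b, and narrower for Il18rap (-0.20 to 0.28) and Il15ra (-0.19 to 0.64).

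Single tumors were the highest or the lowest of their group for many of the genes. Among responders, 24L was the highest for 8 of the 10 genes and 26R the lowest for 5, and 24L also had the highest sums of T cell and NK cell markers (78.6 and 252.1 TPM). In the control IgG group, 14L was the highest for 6 genes and had the highest T cell marker sum of its group (38.0 TPM), while the highest NK cell marker sum was that of 14R (80.3 TPM, against 70.7 in 14L), and 20R was the lowest for 7 genes and the highest for 1. Among the non-responders, 29L was the highest for 5 genes, 32R the lowest for 4 and the highest for 2, and 33R the lowest for 5 but the highest for Il15 and Il18, with the lowest T cell and the highest NK cell marker sum of its group (14.5 and 114.7 TPM). The part of these cells in the spread within groups was not tested.

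In the 3 mice with tumors in both flanks, the flanks differed by less than the SD of log2 CPM between tumors of the group in 24 of 30 pairs of gene and mouse. For Il18bp the log2 difference of the right from the left flank was -0.12 in control mouse 14, -0.33 in responder mouse 30, and -0.00 in non-responder mouse 33, beside group SDs of 0.59, 0.62, and 0.13. For Il15ra it was -0.14, 0.04, and -0.11, beside 0.33, 0.38, and 0.15. Differences larger than the group SD were those of Il15 in mouse 33 (1.07, from 5.13 to 10.8 CPM) and mouse 30 (-0.81, from 8.88 to 5.03 CPM), of Il12b (-0.87) and Il18rap (-0.12) in mouse 30, of Il18 in mouse 33 (0.50), and of Il18r1 in mouse 14 (-0.54). The group SD includes both flank tumors themselves, and no share over all genes is given beside the count. With single pairs these are values without a test, and they do not show whether the flanks of a mouse are alike.

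Ratios of TPM within a tumor put the paired genes on 1 scale, and 4 ratios in 3 comparisons gave 12 exact permutation tests, each adjusted over the 12. A ratio of a called gene and a gene that was not called largely repeats the call of the first. This holds for Il18bp to Il18, Il15ra to Il15, and Il18rap to Il18r1, so their tests are not separate support. The ratio of decoy to ligand, Il18bp to Il18, was 9.48, 5.08, 9.98, 7.67, and 5.38 in responders, in the non-responders 2.83, 4.26, 2.96, and 1.87, and in the control IgG group 3.18, 2.69, 1.97, 3.73, and 2.30. Every responder lay above every other tumor, with group means of 7.52 ± 2.26 (SD, n = 5), 2.98 ± 0.98 (n = 4), and 2.77 ± 0.70 (n = 5). The log2 difference was 1.34 against non-responders and 1.42 against control IgG (p = 0.00794 in a two-sided exact permutation test, which can give no smaller p with groups of these sizes, and adjusted p = 0.0238 for both).

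The ratio of the accessory to the primary IL-18 receptor chain, Il18rap to Il18r1, was 10.2, 16.5, 14.4, 14.1, and 14.0 in responders, against 31.8, 46.8, 44.1, and 43.4 in the non-responders and 25.8, 37.1, 46.4, 35.6, and 63.9 in the control IgG group. The accessory chain was thus the more abundant per length in every tumor, and the responders had the lowest 5 ratios. The log2 difference was -1.59 against non-responders and -1.55 against control IgG (exact permutation test, p = 0.00794, adjusted p = 0.0238 for both). Only tumors of the groups compared were left out of the ratio tests. Both calls against control IgG were made with each responder or control IgG tumor left out. Both calls against non-responders were lost with any responder or non-responder tumor but 29L left out (exact permutation test, adjusted p of 0.0536 to 0.0952), where fewer splits of the tumors exist. Without both 14R and 33R the calls against control IgG were made (exact permutation test, adjusted p = 0.0476 for both), and those against non-responders were lost, at 1.14 for Il18bp to Il18 (0.107) and -1.56 for Il18rap to Il18r1 (0.0714). For both ratios, 1 value per mouse left 4 responder mice against 3 or 4 mice, and the adjusted p was then 0.0686 (exact permutation test), at log2 differences of 1.18 and 1.38 for Il18bp to Il18 and -1.57 and -1.65 for Il18rap to Il18r1. So few mice allow few splits, and even full separation could hardly pass after adjustment. The test per mouse therefore cannot decide whether these calls hold over mice.

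The ratio of Il15ra to Il15 was 2.14 ± 0.65 in responders (n = 5), 1.43 ± 0.242 in control IgG tumors (n = 5), and 1.66 ± 0.595 in non-responders (n = 4), and the ranges overlapped. Responders exceeded non-responders by 0.41 in log2 ratio (exact permutation p = 0.325, adjusted p = 0.476), or by 0.09 without 33R and 0.25 without 30R, and control IgG tumors by 0.54 (exact permutation p = 0.0397, adjusted p = 0.0794). In CPM in place of TPM the latter was 0.68 and passed the test (adjusted p = 0.0381, exact permutation test). The ratio of Il12rb2 to Il12rb1 was 0.19 ± 0.0299 in responders, 0.209 ± 0.029 in control IgG tumors, and 0.148 ± 0.0476 in non-responders, with overlap between responders and each other group. No comparison of this ratio passed the exact permutation test (adjusted p of 0.0762 to 0.476), though that of non-responders with control IgG (-0.55) did without 29L (-0.71, adjusted p = 0.0429), and it was -0.27 in CPM in place of TPM (adjusted p = 0.619).

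**Figure D4:**
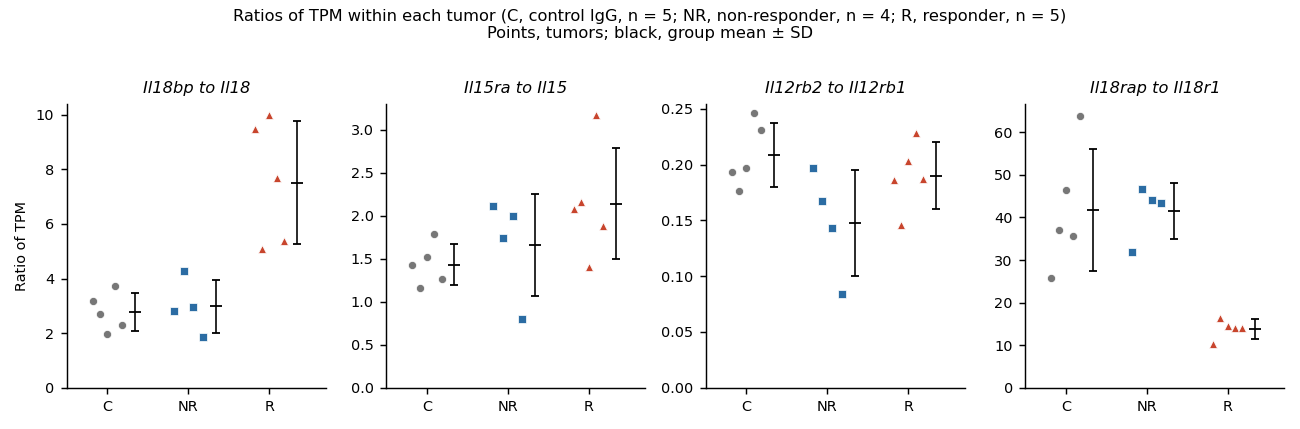
Ratios of TPM of paired genes in each tumor, with points for tumors and black bars for the group mean ± SD; every axis starts at 0. Responders have Il18bp to Il18 ratios of 5.08 to 9.98, above the 1.87 to 4.26 of all other tumors, and Il18rap to Il18r1 ratios of 10.2 to 16.5, below the 25.8 to 63.9 of all other tumors.

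The genes that act with the axis were taken from lists of partner chains, signaling, IL-18 maturation, and targets. Of 8 partner subunits and receptor chains, 6 were tested and 3 rose in responders over non-responders, with a median log2 fold change over the tested genes of 0.53. These were Il27ra, given above, and the chains shared by the IL-2 and IL-15 receptors, Il2rb (0.77 ± 0.19, edgeR adjusted p = 0.0225) and Il2rg (0.56 ± 0.13, edgeR adjusted p = 0.0173). The same 3 rose over control IgG. Il6st, the shared signaling chain of the IL-27 receptor, was at 0.31 ± 0.13 (edgeR adjusted p = 0.122), and Il23r had 0 to 4 counts per tumor and was not tested.

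Of 8 JAK-STAT genes, 4 rose in responders over non-responders and 3 over control IgG, with none lower. Stat4, the transcription factor of the IL-12 receptor, rose by 1.06 ± 0.28 (edgeR adjusted p = 0.0294) and was at 3.44 to 7.35 CPM in responders and 2.28 to 3.29 in non-responders. Stat5a (0.48 ± 0.12), which IL-15 activates, and the kinases Tyk2 (0.40 ± 0.12) and Jak1 (0.38 ± 0.10) rose too, while Jak2 (0.46 ± 0.14), Jak3 (0.32 ± 0.11), Stat3 (0.40 ± 0.15), and Stat5b (0.14 ± 0.09) did not pass the test.

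Of 13 genes of IL-18 maturation and signaling, 3 were higher and 1 was lower in responders than in non-responders. Gsdmd, the pore protein through which mature IL-18 leaves the cell, rose by 0.52 ± 0.10 (edgeR adjusted p = 0.0114), and the inflammasome sensors Nlrp3 and Nlrp1b rose by 0.61 ± 0.15 and 0.55 ± 0.13 (edgeR adjusted p = 0.0256 and 0.0206). Against control IgG, Gsdmd (0.56 ± 0.10) and Nlrp1b (0.48 ± 0.12) were called as well, whereas Nlrp3 was at 0.14 ± 0.14 (edgeR adjusted p = 0.577). Aim2, a sensor of cytosolic DNA, fell by 0.40 (SE 0.12, edgeR adjusted p = 0.0439) and was at 15.8 to 22.1 CPM in responders and 22.2 to 26.9 in non-responders. Casp1, the protease that cuts IL-18, was at 0.27 ± 0.12 (edgeR adjusted p = 0.170) and was called against control IgG (0.39 ± 0.11, edgeR adjusted p = 0.0361). The adaptor Myd88 (0.27 ± 0.09) and the kinase Irak4 (0.20 ± 0.08) did not pass the test against non-responders. Against control IgG, 5 of the 13 genes were called as higher and 1, Aim2, as lower (-0.41, SE 0.11, edgeR adjusted p = 0.0246). Those higher included Irak4 (0.32 ± 0.07, edgeR adjusted p = 0.0103) and Irak2 (0.45 ± 0.14, edgeR adjusted p = 0.0491).

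Of 11 target genes of these cytokines, 10 were tested and 4 rose in responders over non-responders. Ifng, the cytokine that IL-12 and IL-18 together induce, was at 0.991 to 2.64 CPM in responders and 0.324 to 0.523 in non-responders, and rose by 1.81 ± 0.38 (edgeR adjusted p = 0.0139). Tbx21, the T-bet factor of type 1 lymphocytes, rose by 1.30 ± 0.30 (edgeR adjusted p = 0.0203), Irf1 by 0.91 ± 0.21 (0.0190), and Cish, a feedback inhibitor of STAT5 signaling, by 0.80 ± 0.22 (0.0380). The cytotoxic effectors Gzmb (0.21 ± 0.32) and Prf1 (-0.24 ± 0.30) did not pass the test (edgeR adjusted p = 0.705 and 0.638), and neither did Socs1 (0.47 ± 0.23), Socs3 (0.14 ± 0.10), Bcl2 (0.29 ± 0.10), or Il10 (0.80 ± 0.34). Against control IgG, Ifng (1.77 ± 0.35), Tbx21 (1.31 ± 0.28), Irf1 (0.76 ± 0.19), and Il10 (1.13 ± 0.32) were called. The median log2 fold change over the tested genes of the signaling, maturation, and target lists was 0.40, 0.27, and 0.63 against non-responders, where the median of all genes was 0.01, and no list had a gene called between non-responders and control IgG.

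**Figure D5:**
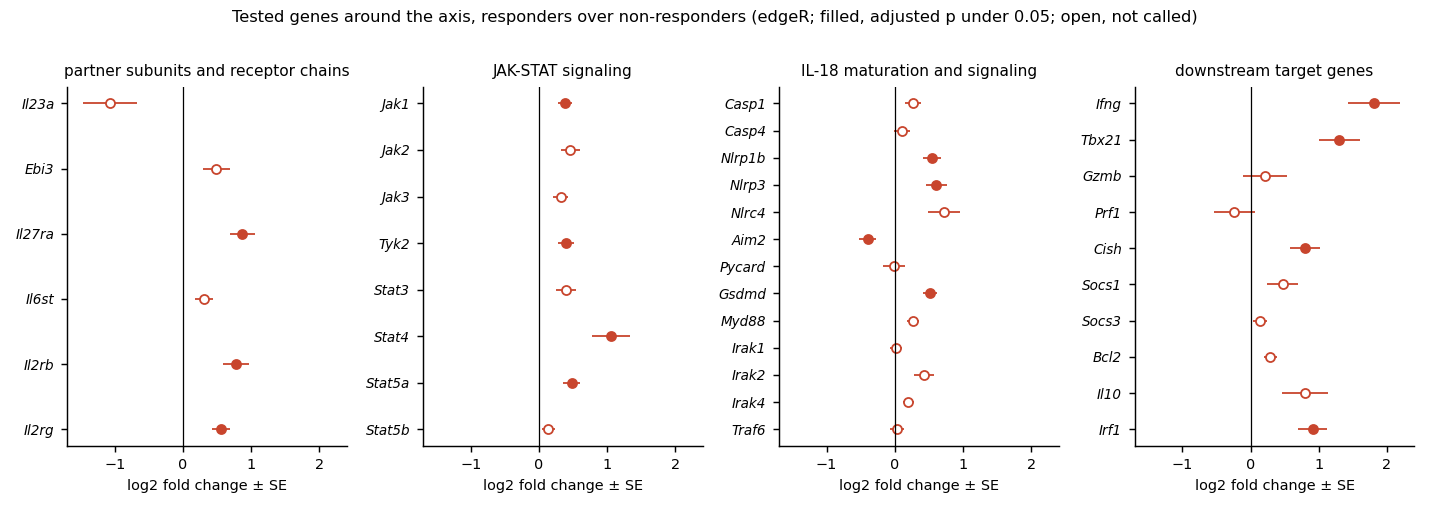
Log2 fold change ± SE between responders and non-responders of the tested genes of 4 lists around the axis, with filled points for an adjusted p under 0.05. Ifng at 1.81 and Tbx21 at 1.30 have the largest called changes, and Aim2 at -0.40 is the 1 called gene below 0.

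The genes most like each member were found by Pearson's r of log2 CPM over the 14 tumors, among 11541 other genes, as a description in which the difference between groups takes part. Il18bp was nearest to the interferon-induced GTPase genes Gbp10, Gbp2, and Gbp4 (r = 0.99 for each), and Il15ra to Gbp8 (0.99), Themis2 (0.98), and Unc13d (0.97). Il27 was nearest to Tgtp2 and Tgtp1 (0.97 for both), a pair of near-identical GTPase genes between which reads may be divided, and to Gpr35 (0.96). For Il12rb1 they were Apol6, Cd27, and Slamf8 (0.97 to 0.98), for Il12rb2 Itgal and Mvp (0.97 for both), and for Il18r1 Dnase1l3, C1rl, and Gimap8 (0.97 to 0.98). Il12b was nearest to Mefv (0.93), Cxcl9 (0.92), and C3 (0.92). The nearest genes were Phf11d, Cd69, and Usp18 for Il15 (0.92 to 0.95), Gngt2, Zup1, and Gcnt1 for Il18 (0.81 to 0.82), and Map6, Esf1, and Hspa9 for Il18rap (0.88 to 0.89). Among the members themselves, r was 0.83 to 0.98 for pairs of the 5 called genes, highest for Il12rb1 with Il18bp, and -0.15 to -0.49 for Il18rap with each of these 5.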

How the data were processed

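RNA-seq had been done on oligo(dT)-selected mRNA of 14 CT26 tumors, grouped by their labelled treatment and response. Per the labels, reads were processed with STAR and RSEM on mm10. The versions and the annotation of the tumor files are not given in the sources used here. The authors deposited an expected count per gene, which is RSEM's unnormalized estimate of its fragments, with fragments that fit several genes divided among them. TPM, also deposited by the authors, is this estimate divided by effective length and brought to an equal total. FPKM was not used. The kit and the counting are not stated to keep strand.

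After rounding, expected counts were tested with edgeR 4.0.16 in R 4.3.3 (TMM, filterByExpr, quasi-likelihood test, Benjamini-Hochberg over 16287 genes), with all 14 tumors in 1 fit without covariates. A tumor counted as a replicate, so p-values take tumors of 1 mouse as independent, and the number of mice per group is 3 or 4. CPM used TMM-scaled totals. Symbols and positions came from GENCODE M21, which matched or named 53620 of 53801 genes. Ratios used 0.01 TPM added to both genes and a two-sided exact permutation test. The smallest share taken as detectable was 3 counts, 0.0619 to 0.0903 CPM, which covers counting error only. No pair of tumors of a group differed by as little as sampling noise (lowest chi-square per gene 21.2).

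Alternatives were DESeq2 1.42.0, limma-voom (limma 3.58.1) with mouse as a random effect, tumors of a mouse summed, RLE scaling, no filter, the compared groups alone, log2(TPM + 1) and log2(TPM + 0.1) in limma, a loess offset for gene length with a span of 0.5, and leaving out each tumor. The limma-voom fit estimated a correlation of -0.282 between tumors of a mouse, so it made no allowance for such tumors being alike. Leaving out both 14R and 33R was added after the data were seen. The members and lists were chosen with earlier results of these data known. The genes named were the 10 members, those of the lists, and the 3 genes most correlated with each member among genes with a mean log2 CPM of at least 1. A gene of the signaling list and 1 of the correlated genes are not reported here and were left out of the counts.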

Additional observations from a re-analysis of the deposited data

Results flagged for a closer look

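Single tumors that stood apart from the others of their group were looked for in the CPM of the 10 genes and in the 4 ratios, over 42 groups of values, of which chance alone flags about 1 in 20. In responders, Il18 was at 4.05 CPM in 24L, where the next highest was at 2.86, and Il18r1 was at 8.53 CPM in 24L, where the next highest was at 6.47. In non-responders, Il27 was at 0.399 CPM in 29L, where the next highest was at 0.255. Without 24L the log2 fold change of Il18r1 was 1.22 against both other groups (edgeR adjusted p = 0.0209 against non-responders and 0.00590 against control IgG), and that of Il18 was -0.00 and -0.01. The 29L value of Il27 rests on 16 counts.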

How the results depend on the processing

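The calls of Il12rb1, Il18r1, and Il18bp in both comparisons of responders were made in all 10 alternatives and with each tumor left out. Between responders and non-responders 5 members were called, 4 to 6 in 9 alternatives and 3 without 14R and 33R, where Il12rb2 and Il15ra were lost; with 1 tumor left out it was 3 (without 24L, 30R, 32R, or 33R) to 6. Ratios averaged per mouse had an adjusted p of 0.0686 (exact permutation test), for Il18bp to Il18 at 1.38 against control IgG and 1.18 against non-responders, and for Il18rap to Il18r1 at -1.65 and -1.57. With so few mice, that test could hardly pass. With 1 responder or non-responder tumor left out both ratios against non-responders were 1.14 (without 33R) to 1.53 and -1.71 to -1.48 (without 24L), with adjusted p above 0.05 except without 29L, and without 14R and 33R they were 1.14 and -1.56, also above it. Il15ra to Il15 against control IgG was 0.68 in CPM and passed the test. On log2(TPM + 1) and log2(TPM + 0.1), where the median of all genes moved by 0.17 and 0.24 against non-responders, 0.09 and 0.12 against control IgG, and -0.08 and -0.11 between non-responders and control IgG, the sign of Il18rap turned to 0.11 and 0.12 against non-responders and to 0.01 against control IgG on both. With 1 tumor left out, Il15 against non-responders was -0.07 to 0.48, and Il18 was -0.00 to 0.28 against non-responders and -0.01 to 0.26 against control IgG. The cause of these changes was not tested.

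The other turns of sign were between non-responders and control IgG, where no value passed a test except Il12rb2 to Il12rb1 without 29L (range -0.71 to -0.31). They were Il12rb1 at 0.06 with mice summed, 0.09 and 0.12 on the TPM scales, and 0.06 without 14R and 33R; Il12rb2 at 0.03 with mice summed and 0.07 without 14R and 33R; Il15 at -0.02 on both TPM scales; Il18 at 0.04 with mice summed; Il18bp at -0.02 on both TPM scales and -0.03 with the length offset; Il18r1 at -0.04 (limma-voom), -0.00 (RLE), -0.01 (no filter), -0.06, and -0.13 (TPM); Il18rap at -0.10 and -0.11 (TPM); Il27 at 0.04 without 14R and 33R; and Il18rap to Il18r1 at -0.08 per mouse and -0.01 without 14R and 33R. With 1 tumor left out the ranges were -0.42 to 0.32 for Il12b, -0.20 to 0.04 for Il12rb1, -0.50 to 0.05 for Il12rb2, -0.18 to 0.38 for Il15, -0.17 to 0.12 for Il18, -0.12 to 0.19 for Il18bp, -0.22 to 0.16 for Il18r1, and -0.08 to 0.11 for Il18rap, and for the ratios -0.01 to 0.46 (Il15ra to Il15), -0.11 to 0.28 (Il18bp to Il18), and -0.12 to 0.21 (Il18rap to Il18r1).

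Over all genes, 1612 were called between responders and non-responders, against 2634 by DESeq2, 2973 by limma-voom, and 689 with the 2 groups alone, and 51.3% of the calls were higher in responders, against 91.2% on log2(TPM + 1) and 70.7% with the 2 groups alone. Against control IgG, 59.8% were higher, and 83.3% on log2(TPM + 1). In the lists, DESeq2 called 8 of the 13 IL-18 maturation genes between responders and non-responders. GEO's labels give no replicate numbers shared between groups. No paired analysis was possible because each mouse had tumors of 1 group. Depth limits Il12b and Il27 most, and Il12a, Il23r, and Il21 were too scarce to test.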
